A study of Caenorhabditis elegans with 2 samples.

Results

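Divergent gene promoters are stretches of DNA from which a minus-strand gene and a plus-strand gene are read away from each other. The binding sites described here are the 344 summits of the SPTF-1 ChIP-seq that fall in such promoters, out of 2430 peaks in the authors' thresholded list. A peak's summit, the base of highest signal, had to lie from 1000 bp upstream to 500 bp downstream of an annotated 5' end of at least 1 plus-strand and at least 1 minus-strand protein-coding gene. Mitochondrial peaks (11) were left out, and so were summits that came within 200 bp of genes for small RNAs (tRNA, snRNA, snoRNA and miRNA). This left 2078 nuclear peaks, of which the 344 are 16.6% (exact 95% interval 14.98 to 18.2%). A further 876 summits lay in promoter windows of genes on 1 strand only and are called single-direction summits here, and 858 lay outside every promoter window. Before summits near small RNA genes were removed, 359 met the rule.

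SPTF-1 belongs to the Sp family of zinc-finger transcription factors. The series holds 1 group with 2 biological replicates, so no condition was compared and no test over samples could be made. Chromatin came from whole C. elegans of strain OP707, genotype unc-119(tm4063) III; wgIs707, in which a transgene codes for SPTF-1 with GFP and FLAG at its C-terminus. The animals were mixed-stage embryos of pooled sex, taken 2.5 hours after egg bleaching. The labels disagree on the antibody, which is given as anti-GFP in one field and as sptf-1 in another. Signal from the whole embryo cannot be assigned to a cell type. Read depth is unknown, so the intervals below cover the number of summits, genes or windows only, and the precision behind any single signal value is not known.

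Sp and KLF proteins bind GC boxes and related GT-rich boxes through a set of zinc fingers, and in mammals many such boxes lie in promoters of broadly expressed genes. In a divergent promoter a single bound protein lies upstream of both genes, and its position alone does not say which gene it regulates. In C. elegans the 5' end of many mature transcripts is made by trans-splicing, so an annotated start can lie downstream of the place where transcription begins.

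The sequences of 11 summits show what lies under the signal. They were chosen after values and sequences were seen, to cover the strongest pairs, ribosomal protein genes and each of the words described below. Each is the plus strand of WBcel235 (ce11), read 5' to 3' from the NCBI RefSeq assembly, 50 bp to either side of the summit. For ears-2/uncp-18 the 91 bp between the starts is given instead. Capitals mark the fixed letters of a word on either strand. The words are the GC box GGGCGG, which reads CCGCCC on the other strand, GTGC followed after 7 bases by TTGC (the spaced word), TTGC repeated at a period of 22 bp (the TTGC repeat), the word CATACAC, the word GCGTCAG and the heat shock element. In every pair written with a slash the minus-strand gene is named first.
ecps-1/atx-2, III:10461276-10461376: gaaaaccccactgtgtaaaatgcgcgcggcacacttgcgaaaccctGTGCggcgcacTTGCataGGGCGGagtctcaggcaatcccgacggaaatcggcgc
K01G5.10/tasp-1, III:10759188-10759288: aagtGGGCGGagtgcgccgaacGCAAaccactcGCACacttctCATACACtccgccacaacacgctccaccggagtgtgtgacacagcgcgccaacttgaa
ears-2/uncp-18, IV:390469-390559: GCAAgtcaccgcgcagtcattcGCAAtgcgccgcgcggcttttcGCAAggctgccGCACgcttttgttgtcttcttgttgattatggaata
rpl-15/K11H12.8, IV:654876-654976: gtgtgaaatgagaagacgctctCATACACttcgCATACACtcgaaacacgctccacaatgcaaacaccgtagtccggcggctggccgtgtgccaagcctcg
rpl-20/Y17G9B.5, IV:4750018-4750118: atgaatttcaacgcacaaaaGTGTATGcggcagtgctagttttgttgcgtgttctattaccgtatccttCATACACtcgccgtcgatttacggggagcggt
ifet-1/rps-1, III:4475605-4475705: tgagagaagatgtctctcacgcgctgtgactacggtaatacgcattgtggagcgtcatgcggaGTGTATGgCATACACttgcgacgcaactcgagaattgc
rnf-121/C16C10.4, III:4171141-4171241: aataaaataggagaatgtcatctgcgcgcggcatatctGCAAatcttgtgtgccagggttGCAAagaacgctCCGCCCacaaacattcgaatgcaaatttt
algn-13/R10D12.13, V:13962173-13962273: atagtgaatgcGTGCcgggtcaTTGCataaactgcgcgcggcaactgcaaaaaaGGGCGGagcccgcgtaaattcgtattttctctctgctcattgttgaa
T10B5.3/knl-3, V:1868751-1868851: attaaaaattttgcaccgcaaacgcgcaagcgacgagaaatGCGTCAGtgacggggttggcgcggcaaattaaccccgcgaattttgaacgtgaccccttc
rsp-2/rsp-1, II:11453160-11453260: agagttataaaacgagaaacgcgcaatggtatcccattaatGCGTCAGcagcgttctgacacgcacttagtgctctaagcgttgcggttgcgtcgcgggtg
F44E5.4/F44E5.5, II:11759429-11759529: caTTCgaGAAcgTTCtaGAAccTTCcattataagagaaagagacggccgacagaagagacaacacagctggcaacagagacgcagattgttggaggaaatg

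The strongest divergent promoter summit lay between ecps-1, whose product has a domain of the proteasome adaptor Ecm29, and atx-2, the ataxin-2 RNA-binding protein gene. Its deposited signal value was 1999 in the thresholded list, 1163 in replicate 1 and 844 in replicate 2, where its region ranked 22 and 26 among the 30000 of each list. The signal value is the peak caller's own number and is not on one scale across lists, so ranks are used between replicates. The summit was 63 bp upstream of atx-2 and 775 bp upstream of ecps-1. The second, between K01G5.10 (a haloacid dehalogenase-like hydrolase) and the protease gene tasp-1, had a similar layout, 69 bp from tasp-1 and 716 bp from K01G5.10. Its signal values were 1897 in the thresholded list, 1003 in replicate 1 and 902 in replicate 2. Both of these summits lay close to 1 of the 2 genes.

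The third pair was the tightest of the strong ones. The starts of ears-2, a mitochondrial glutamyl-tRNA synthetase gene, and uncp-18, a syntaxin-binding protein gene, were 92 bp apart, with the summit 28 bp upstream of the first and 64 bp upstream of the second. Its signal value was 1858, with 1021 in replicate 1 (rank 25) and 845 in replicate 2 (rank 24). At rpl-15, for a protein of the large ribosomal subunit, the summit was 350 bp upstream, and the growth hormone-inducible transmembrane protein gene K11H12.8 began 464 bp to the other side. That summit had a signal value of 1494 and was stronger by rank in replicate 2 (rank 30, signal 748) than in replicate 1 (rank 56, signal 748). Between malonyl-CoA decarboxylase (mlcd-1) and the isocitrate dehydrogenase subunit gene idhg-1, both for mitochondrial enzymes, the summit had a signal value of 1479 and lay 63 bp from idhg-1 and 604 bp from mlcd-1.

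The following 5 pairs joined genes of various functions. The sorting nexin gene snx-13 and snr-1, for the core splicing protein Sm D3, shared a summit of signal value 1369, which lay 185 bp from snx-13 and 426 bp from snr-1. The DNA demethylase gene nmad-1 and the mitochondrial hydrolase gene hach-1 shared one of 1355, at 203 and 313 bp. A summit of 1247 lay 290 bp upstream of the ribosomal protein gene rpl-20 and 172 bp upstream of Y17G9B.5. Ubiquitin ligase gene rnf-121 and C16C10.4, annotated as a putative SAP18 subunit of a histone deacetylase complex, shared one of 1165, at 238 and 145 bp. The histone H4 gene his-67 and the histone H2A gene his-68 shared one of 1150, at 219 and 150 bp. These 5 summits ranked between 44 and 114 in the replicates, the lowest of them his-67/his-68 in replicate 1 (rank 114, against 53 in replicate 2).

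Of the next 15 pairs by signal, several also joined a gene for a basic cell function to an unrelated one. The pair Y22D7AL.10 and hsp-60 instead joined partners, since they code for the mitochondrial co-chaperonin and the mitochondrial chaperonin. Its summit (signal 1082, ranks 111 and 72) lay 199 bp upstream of Y22D7AL.10 and 614 bp upstream of hsp-60. The J-domain gene dnj-29 and ndua-2, for a subunit of respiratory complex I, shared a summit of 1050 (ranks 89 and 115) at 149 and 379 bp. Ribosomal protein genes were in 3 of these pairs, rps-19 with hsr-9 (989), rps-20 with ekl-4 (923) and rps-1 with the translational repressor gene ifet-1 (823). Chemoreceptor genes were in a further 2, sre-1 with B0495.9 (1133) and sri-5 with rsr-1 (839). The summit of the first lay 71 bp upstream of B0495.9 and 923 bp from sre-1, and that of the second 275 bp upstream of sri-5 and 457 bp from rsr-1.

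The remaining pairs among these 15 were spe-48/Y51F10.11 (1088), E04F6.6/pcrg-1 (1086), dad-1/tre-1 (949.9), piit-1/sas-5 (901), gei-6/krr-1 (896), F54D5.9/dnj-13 (873), larp-1/wip-1 (823) and nrde-2/atad-3 (813). They include the oligosaccharyltransferase subunit gene dad-1 with the trehalase gene tre-1, the centriole gene sas-5, and the ribosome assembly gene krr-1. The summit of dad-1/tre-1 lay 42 bp from tre-1, that of piit-1/sas-5 78 bp from sas-5 and that of gei-6/krr-1 133 bp from krr-1. All 25 strongest summits lay between the starts of their pair, and all overlapped a top region of each replicate.

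Over all 344 summits, the median signal value was 344, with quartiles of 264 and 497. The median was 293 for the 876 single-direction summits, 271 for the 858 summits outside promoter windows and 288 for all 2078. Divergent promoter summits made up a larger share of the stronger peaks. They were 35 of the 100 strongest (35.0%, interval 25.7 to 45.2%), 222 of the 1000 strongest (22.2%, 19.7 to 24.9%) and 114 of the 1000 weakest (11.4%, 9.50 to 13.5%). In the replicates' own lists, their median rank was 1015 in replicate 1 and 896 in replicate 2, against 1226.5 and 1239 for single-direction summits. No test between the classes was made.

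Signal values ran on across the threshold without a gap. The weakest divergent promoter summit was at rmh-2/suds-3 (signal 219), after R04F11.5/R04F11.2 (221), F31D4.2/fkb-6 (221), R07E5.17/snfc-5 (223) and mrps-7/Y57G11C.3 (224). Below the threshold, the authors' pooled list of 30000 regions, labelled as peaks and background, held 1006 more that meet the same rule. The first of these were C37C3.9/C37C3.18 (218), the ribosomal protein pair rps-10/rpl-24.1 (218), clh-5/T24H10.1 (218), dnc-1/lsm-7 (215) and dnj-22/natc-1 (215).

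A top region is one of the 2430 strongest of a replicate, as many as the thresholded list holds. Of the 344 summits' peaks, 272 overlapped a top region in both replicates by at least 1 base (79.1%, interval 74.4 to 83.2%). The background is all 2419 nuclear peaks, of which 69.8% did so. Another 26 had one in replicate 1 alone, 43 in replicate 2 alone, and 3 had none. The share was 68.7% for single-direction summits (65.5 to 71.8%) and 59.0% outside promoter windows (55.6 to 62.3%). Agreement moved with signal. Above the median signal of the 2078 peaks it was 98.2% for divergent promoter summits (223 of 227), 98.5% for single-direction summits (457 of 464) and 96.6% outside promoters (336 of 348). At or below that median it was 41.9% (49 of 117, interval 32.8 to 51.4%), 35.2% (30.6 to 40.02%) and 33.3% (29.3 to 37.6%). The signal value of the thresholded list was made from both replicates, so a peak of high signal is likely to be a top region in each. The rise of agreement with signal is thus largely set by construction. This split by signal was added after the values were seen.

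Both replicates listed a region at 342 summits, and the log2 signal values of the replicates there had a Pearson's r of 0.88 and a Spearman's rho of 0.822. The points are summits of the same pair of libraries, chosen on both, and not independent samples. The summits placed in the replicates' lists were a median of 13.5 bp apart, and 296 of 342 (86.5%) were within 50 bp. For single-direction summits the median was 18 bp.

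**Figure D1:**
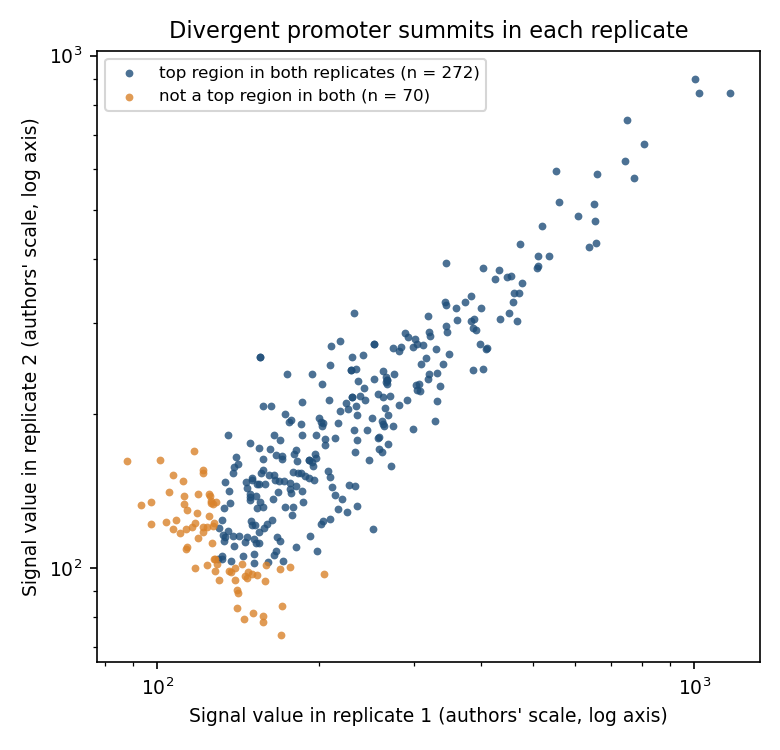
Each point is 1 divergent promoter summit, with its signal value in replicate 1 (horizontal) and in replicate 2 (vertical), both on the authors' scale and on log axes. Points of the 272 with a top region in both replicates run along the diagonal up to ecps-1/atx-2 at 1163 and 844, and the other 70 with a region in both lists lie at the low end.

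The label "divergent" was checked by the order of the starts. In 319 of 344 cases (92.7%, interval 89.5 to 95.2%) the minus-strand start lay to the left of the plus-strand start with the summit between them. In 23 cases the genes were head to head but the summit lay inside 1 of them, 6 to 479 bp downstream of its start (median 37 bp). The strongest of these was at spd-5/npp-6, a centrosome protein gene and a nuclear pore protein gene with starts 175 bp apart, where the summit (signal 797) was 221 bp downstream of the spd-5 start and 396 bp upstream of npp-6. Another was at dnj-19/nhr-47 (signal 692), 18 bp downstream of the start of nhr-47. In the remaining 2 cases, Y39A1A.9/Y39A1A.10 and F42A10.5/abcf-3, the genes overlapped instead of pointing apart. The summits fell into 336 distinct pairs, and 23 summits lay in the windows of 3 or more genes.

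The summits were close to the starts. The median distance to the nearer start was 148 bp (quartiles 75 and 225) and to the farther 357.5 bp. The nearer start was within 100 bp for 110 summits (32.0%), within 200 bp for 236 (68.6%) and within 300 bp for 303 (88.1%). For single-direction summits the median distance to the start was 263.5 bp. A summit with a start to each side has more chance of being near one, so these medians do not measure the same thing. The minus-strand start was the nearer in 167 of 344 (48.5%, interval 43.2 to 54.0%). Between the starts, the median place was 0.508 of the way from the minus-strand to the plus-strand start. Which gene is on the minus strand depends on the orientation of the assembly. A median near the middle and an even split by strand would thus arise wherever the summits lie. Of the 319, 207 (64.9%, 59.4 to 70.1%) lay between 0.25 and 0.75 of the way. With starts more than 1000 bp apart, the rule leaves out places upstream of both genes but near 1 start, which favours the middle.

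**Figure D2:**
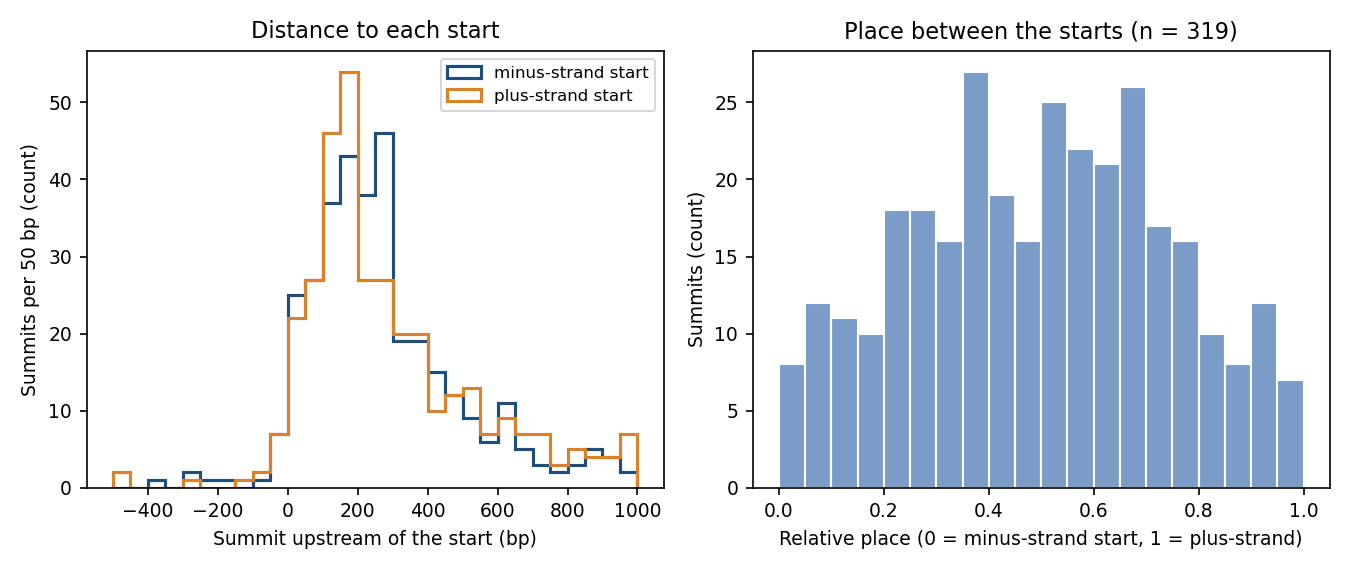
The left panel counts the 344 summits in steps of 50 bp by their distance upstream of the minus-strand start and of the plus-strand start of their pair (bp, negative values are inside the gene). The right panel counts the 319 summits between the starts by relative place, from 0 at the minus-strand start to 1 at the plus-strand start. The median of 0.508 is near the middle by the symmetry of the strands.

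To see how often such a promoter was bound, all neighbouring head-to-head protein-coding genes with starts at most 2000 bp apart were listed. There were 2556 pairs, and 317 held a summit in the windows of both genes (12.4%, interval 11.1 to 13.7%). Classes of spacing are given with their upper bound included and their lower bound left out. The share was highest at 300 to 400 bp, with 46 of 213 pairs (21.6%, 16.3 to 27.7%), and at 400 to 600 bp, with 82 of 401 (20.4%, 16.6 to 24.7%). It was 17 of 193 (8.81%, 5.22 to 13.7%) at 100 to 200 bp. Beyond 1000 bp the overlap of the windows shrinks as the starts move apart, so the 26 of 491 pairs (interval 3.49 to 7.66%) at 1000 to 1500 bp and the 5 of 324 (1.54%) at 1500 to 2000 bp are low by construction. Counted as summits per kb between the starts, which has no such limit, the density was 0.335 at 100 to 200 bp, on 10 summits. It was 0.600 at 200 to 300 bp, 0.587 at 300 to 400 bp, 0.397 at 400 to 600 bp and 0.0794 at 1500 to 2000 bp. In the shortest class, up to 100 bp, only 3 summits lay between the starts, too few to place it.

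The sequence between starts 200 to 800 bp apart held 0.377 summits per kb, and that between the starts of all 2556 pairs 0.180 per kb. The 1000 bp upstream of starts in no head-to-head pair held 0.0431 per kb, and the nuclear genome 0.0207 per kb. Sequence between close starts lies nearer to a start than much of those 1000 bp, so these densities are not of like distances. Counted by gene, 740 of the 5112 genes in head-to-head pairs had a summit in their promoter window (14.5%, interval 13.5 to 15.5%), against 793 of the 14861 other genes (5.34%, 4.98 to 5.71%). A gene in a pair counts a summit that lies close to its neighbour, so these 2 shares are not of like windows. The spacing of the starts and the signal value had a Pearson's r of -0.03 and a Spearman's rho of -0.02 across the 319 summits between starts, given as a description.

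**Figure D3:**
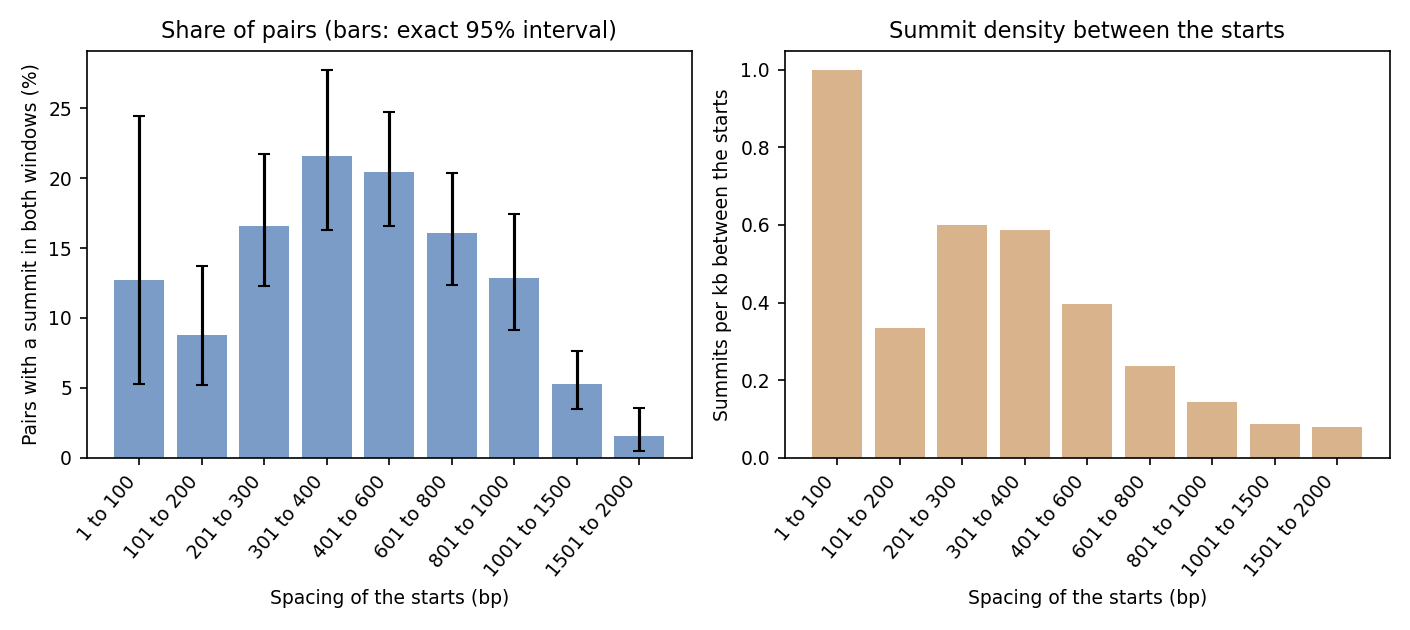
The left panel gives the share of head-to-head pairs with a summit in the windows of both genes (%), by the spacing of their starts (bp), with exact 95% intervals; the highest share, 21.6%, is at 300 to 400 bp. The right panel gives summits per kb of sequence between the starts, which falls from 0.600 at 200 to 300 bp to 0.0794 at 1500 to 2000 bp, and whose first bar rests on 3 summits.

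Bound pairs were spread over all chromosomes. The share of pairs with a summit was 18.2% on I (78 of 429), 17.9% on III (69 of 385), 12.0% on II (56 of 467), 11.6% on IV (51 of 441), 7.62% on V (50 of 656) and 7.30% on X (13 of 178). The intervals of I (14.6 to 22.2%) and III (14.2 to 22.1%) did not overlap those of V (5.71 to 9.93%) or X (3.95 to 12.2%). No pair had 3 summits, and 8 pairs had 2. At zip-4/nol-58 (signals 266 and 233) the summits were assigned to different annotated starts of zip-4. At 6 of the 8 pairs the best-ranked overlapping region was the same for both peaks in each replicate, and only dnj-29/ndua-2 and zip-4/nol-58 had different ones. Whether the weaker summit of the 6 also had a region of its own was not examined. At dnj-29/ndua-2 the second summit (signal 474, ranks 401 and 679) lay 172 bp upstream of ndua-2, and the first 149 bp upstream of dnj-29, so that each gene had its own close summit. The same arrangement was found at supr-1/dnj-28, 177 bp from supr-1 and 179 bp from dnj-28, which is 1 of the 6 whose peaks share their best-ranked regions.

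The other 2239 pairs, without a counted summit in the windows of both genes, are called unmarked pairs here. Of them, 74 (3.31%) did hold a thresholded summit, near a small RNA gene or elsewhere between the starts. In the windows of both genes, 643 of the 2239 (28.7%, interval 26.9 to 30.6%) held a region of the pooled list below the threshold. Without the 74 it was 634 of 2165 pairs (29.3%, 27.4 to 31.3%), a set formed after the values were seen. By its label the pooled list holds peaks and background, so a region below the threshold need not be a binding site. An unmarked pair is thus neither shown to be bound nor shown to be free of SPTF-1.

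The genes at these summits were then counted by group. A divergent promoter summit marked 695 of 19973 protein-coding genes, which is 3.48% and the background for each list. Lists were built from gene symbols, and a summit counts for every gene whose window holds it. Genes of the cytosolic ribosome had the highest share, 28 of 81 (34.6%, interval 24.3 to 45.96%), and among the 49 of them in head-to-head pairs 28 had one (57.1%, 42.2 to 71.2%). Over all genes of head-to-head pairs it was 644 of 5112 (12.6%, 11.7 to 13.5%). The strongest were rpl-15, rpl-20 and rps-19, with signal values of 1494, 1247 and 989. The summit lay a median of 275.5 bp upstream of the ribosomal gene's start (quartiles 244 and 369, range 36 to 732). At single-direction summits of 18 ribosomal genes the median was 313 bp.

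In 2 cases 1 summit lay between a pair of ribosomal protein genes. Between rpl-39 and rps-30 the summit (signal 363, ranks 728 and 1288) was almost central, 242 and 257 bp from the starts. Between rps-14 and rpl-36 it lay 264 bp from rps-14 and 399 bp from rpl-36 (signal 329, ranks 1148 and 1099). These were far weaker than at rpl-15 and yet in the top regions of both replicates. Other ribosomal summits were less even between replicates. At rpl-1 the region ranked 6866 in replicate 1 and 904 in replicate 2, and at rps-3 it ranked 1243 and 3956.

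Genes for splicing had a summit at 10 of 37 (27.0%, interval 13.8 to 44.1%), led by snr-1 (1369), and by rsp-1 and rsp-2, for SR splicing factors, which shared 1 summit (693). The rsp-2 start was 255 bp away and the rsp-1 start 764 bp. Respiratory chain genes had 14 of 70 (interval 11.4 to 31.3%), among them ndua-2 (1050) and the cytochrome oxidase subunit gene cox-6B, 156 bp from a summit (625) whose window also held nduc-2, 806 bp away. Chaperones had 13 of 65 (interval 11.1 to 31.8%), and their strongest were at hsp-60, dnj-29 and dnj-13. Being built from symbols, this list leaves out the co-chaperonin gene Y22D7AL.10 and the HSP70 genes F44E5.4 and F44E5.5, which have summits. Genes listed by symbol as cell cycle and replication had 13 of 62 (interval 11.7 to 33.2%), with the chromatin assembly factor gene chaf-2 (738), cdk-9 (592) and mcm-10 (418). Membership rests on the symbol, so genes such as cdk-9, cdk-5 and cdc-48.2 are counted without a check of their function. The origin recognition gene orc-5 and the cyclin B gene cyb-1 shared a summit of 282, at 121 and 507 bp. Among genes in head-to-head pairs the share was 39.1% for splicing (interval 19.7 to 61.5%) and 35.0% for the respiratory chain (20.6 to 51.7%). It was 36.4% for chaperones (20.4 to 54.9%) and 40.7% for cell cycle and replication (22.4 to 61.2%), against 12.6% of all paired genes.

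The other lists for protein synthesis and turnover had lower shares than the cytosolic ribosome, with intervals that overlap that of splicing genes. Upper bounds were 30.5% for translation factors, 29.0% for synthetases and 28.2% for the proteasome, so these also overlap the ribosome's interval, which starts at 24.3%. Only mitochondrial ribosomal proteins, with an upper bound of 21.3%, lay below it. Translation factors had 6 of 39 (15.4%), with iff-2 (771), eef-2 (526) and eif-3.D (481). Mitochondrial ribosomal proteins had 8 of 70 (11.4%), with mrpl-12 (535), mrpl-45 (474) and mrpl-39 (424). The tRNA synthetases had 4 of 32 (12.5%), with tars-1 (354) and mars-1 (304) after ears-2. Proteasome subunits had 4 of 33, with rpn-7 (571), rpn-3 (485) and rpn-6.1 (238). For the proteasome the lower bound of the interval, 3.40%, was below the background share of 3.48%, and for the synthetases it was 3.51%. In head-to-head pairs the interval was 11.9 to 54.3% for translation factors (6 of 20) and 11.1 to 46.3% for mitochondrial ribosomal proteins (7 of 27). For synthetases (4 of 15) it was 7.79 to 55.1% and for the proteasome (4 of 22) 5.19 to 40.3%. All of these span the 12.6% of all paired genes.

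Histone genes had 13 of 86 (15.1%, interval 8.30 to 24.5%), and 13 of the 68 in head-to-head pairs (19.1%, 10.6 to 30.5%), an interval that spans the 12.6% of all paired genes. Here both genes of the pair were histone genes in 6 pairs. After his-67/his-68 these were his-61/his-62 (443), his-31/his-32 (406 and 282), his-60/his-59 (286), his-4/his-3 (247) and his-2/his-1 (244). Many histone genes are near-identical copies, to which reads may not map uniquely, and this was not measured.

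Families of genes with more restricted expression had lower shares. Among chemoreceptors it was 4 of 1309 (0.306%, interval 0.0833 to 0.781%), of which sre-1 and sri-5, described above, were the strongest. Collagens had 2 of 156 (1.28%, 0.156 to 4.55%), col-38 (500), in a pair with the ribosomal gene rpl-5, and col-71 (391). Nuclear hormone receptors had 2 of 269 (0.743%, 0.0902 to 2.66%), nhr-47 (692) and nhr-142 (460). Homeobox genes had 1 of 63 (interval 0.0402 to 8.53%), ceh-38 (375), and neuropeptides 0 of 140, with an upper bound of 2.60%. For collagens and homeobox genes the interval spans the background of 3.48%. Head-to-head pairs held 280 of the 1309 chemoreceptors, beside 5112 of all 19973 genes, and the 4 marked are 1.43% of these 280 (0.391 to 3.62%), against 12.6% of all paired genes. In such pairs 2 of 44 nuclear hormone receptor genes (4.55%, 0.555 to 15.5%), 2 of 38 collagens (5.26%, 0.644 to 17.7%), 1 of 10 homeobox genes and 0 of 14 neuropeptide genes (upper bound 23.2%) were marked, too few to set apart from 12.6%. Of the 344 summits, 235 had no gene of any of the 15 lists. The HSP70 genes F44E5.4 and F44E5.5 are in no list, so having no listed gene does not exclude such a function.

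**Figure D4:**
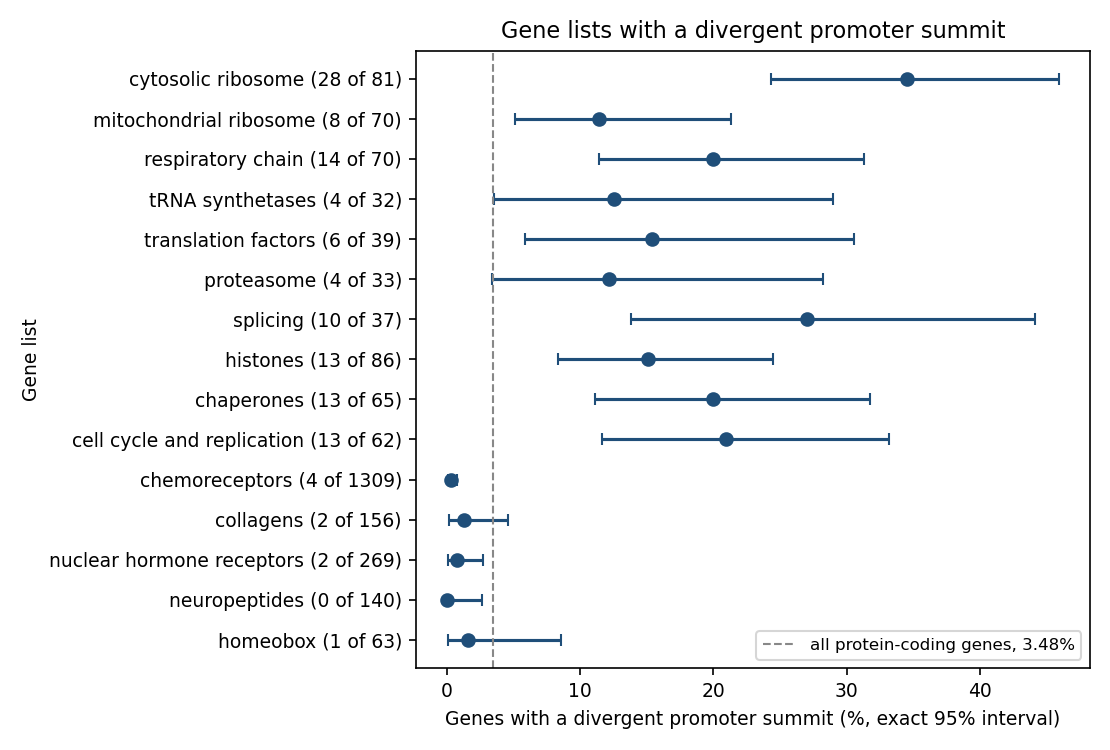
Share of each list's genes with a divergent promoter summit (%, points) with exact 95% intervals (bars), and the share over all protein-coding genes (dashed line, 3.48%). The cytosolic ribosome, at 34.6%, lies farthest to the right, and chemoreceptors, at 0.306%, lie left of the line with their whole interval.

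The DNA under the summits was rich in G and C. Windows reaching 50 bp to either side of the summit had a mean GC content of 48.1% (SD 7.65 over 344 windows), against 33.9% (SD 8.41) at the midpoints of the 2239 unmarked pairs and of the 2165 alike. Single-direction summits (49.5%) and those outside promoters (49.6%) had similar means, so the high GC content was shared by all classes of summit. A set of 501 of these midpoints with a GC content of at least 40%, formed after the values were seen, had a mean of 45.8% and is given beside all of them below.

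The GC box GGGCGG was found on either strand in 45 of 344 windows (13.1%, interval 9.70 to 17.1%). It was in 9.59% of single-direction windows (7.72 to 11.7%), in 7.93% outside promoters, in 2.41% of midpoints of unmarked pairs and in 7.78% of those with high GC content (5.59 to 10.5%). The interval at the summits thus overlaps that of midpoints of high GC content. Summits with a GC box had a median signal of 476 and the rest 329. Higher signal was not particular to this word. Medians were 584 with and 328 without the spaced word, 628 and 330 for the TTGC repeat, and 448 and 332 for GCGTCAG. Those words were chosen from these same windows, and 19 of the 45 windows with a GC box also held the spaced word. The GT-rich KLF box GGGTGG was in 2.03% of windows (0.822 to 4.15%), against 5.94% of single-direction windows (4.46 to 7.71%), 8.62% outside promoters and 3.19% of midpoints of high GC content. The longer GGGCGTGG was in 4 windows. The CT repeat CTCTCT was in 12.8% (9.45 to 16.8%), against 21.3% of single-direction windows (18.7 to 24.2%), 25.9% outside promoters and 11.2% of midpoints of high GC content. For both of these words the intervals of divergent and single-direction summits did not overlap. The TATA box TATAAA was in 5.23% of windows, 14.2% of all midpoints and 3.99% of those with high GC content.

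A word with a gap was seen when the windows were read. The letters GTGC, then 7 bases of any kind, then TTGC, on either strand, were in 36 of 344 windows (10.5%, interval 7.44 to 14.2%). They were in 3.42% of single-direction windows (2.32 to 4.85%), 0.350% of windows outside promoters (0.0722 to 1.02%), 0.447% of midpoints of unmarked pairs and 1.40% of those with high GC content (0.564 to 2.86%). At 200 bp upstream of the 14068 other genes with no summit it was in 0.178%. The word was picked because it was frequent in these very windows, first by reading the 40 strongest and then by a scan of spaced words, so its share among them supports nothing by itself. In the 304 summits after the 40 strongest, which the scan had also covered, it was 7.57% (4.86 to 11.1%). The windows of ecps-1/atx-2, K01G5.10/tasp-1, ears-2/uncp-18 and algn-13/R10D12.13 printed above hold it.

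The spaced word and the GC box often stood together. Of the 45 windows with a GC box 19 also held the spaced word (42.2%, interval 27.7 to 57.8%), against 17 of 299 without (5.69%, 3.35 to 8.95%). In 11 of the 19 both were on the same strand. The GC box followed TTGC in 10 of these and also in every window with the words on opposite strands, the exception being ubr-4/ssb-1. It followed by 3 bp at ecps-1/atx-2 and by 28 bp at algn-13/R10D12.13. The gap between the spaced word and the GC box ranged from 3 to 41 bp with a median of 27 bp, so it was not fixed. The centre of the spaced word lay a median of 13.5 bp from the summit and that of the GC box 25.5 bp. Words were sought only within 50 bp of the summit, and the GC box spread over that range, with quartiles of 16.5 and 34.5 bp. A longer word cannot lie as far out as a short one, so the medians of different words are not of like ranges.

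The TTGC repeat, with 18 bases between the copies, was in 27 windows (7.85%, interval 5.24 to 11.2%), against 2.97% of single-direction windows (1.95 to 4.32%), 0.466% outside promoters, 0.223% of midpoints of unmarked pairs and 0.399% of those with high GC content. Its centre lay a median of 7.5 bp from the summit, within a narrower possible range than that of the shorter words. In the window of ears-2/uncp-18 the repeat and the spaced word run into each other. GCGTCAG was in 24 windows (6.98%, 4.52 to 10.2%), among them T10B5.3/knl-3, a gene for a ribosome assembly domain protein and a kinetochore protein gene, and rsp-2/rsp-1. It was in 2.85% of single-direction windows (1.86 to 4.18%), 0.583% outside promoters, 0.625% of midpoints and 1.80% of those with high GC content (0.825 to 3.38%). These words too were chosen for their frequency in the windows.

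CATACAC was in 7 windows (2.03%), fewer by share than in single-direction windows (3.88%) or outside promoters (5.36%). It was in 1.40% of midpoints of high GC content. Of the 7, 3 were at ribosomal protein genes, rpl-15, rpl-20 and rps-1, each with 2 copies in the printed window, out of 26 divergent summits at such genes. The heat shock element, spelled GAA, TTC and GAA with 2 bases between each, was in 3 windows (0.872%), close to its share of 0.625% at midpoints of unmarked pairs and 0.599% at those of high GC content. All 3 lay beside a gene for a chaperone or a chaperone cofactor, a feature seen only after the windows were read. They were F44E5.4/F44E5.5 (signal 719, ranks 232 and 226), both coding for HSP70 proteins, hsp-110/rpn-3 (485) and ahsa-1/C01G10.7 (399.8), the last with a gene for an activator of the HSP90 ATPase.

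**Figure D5:**
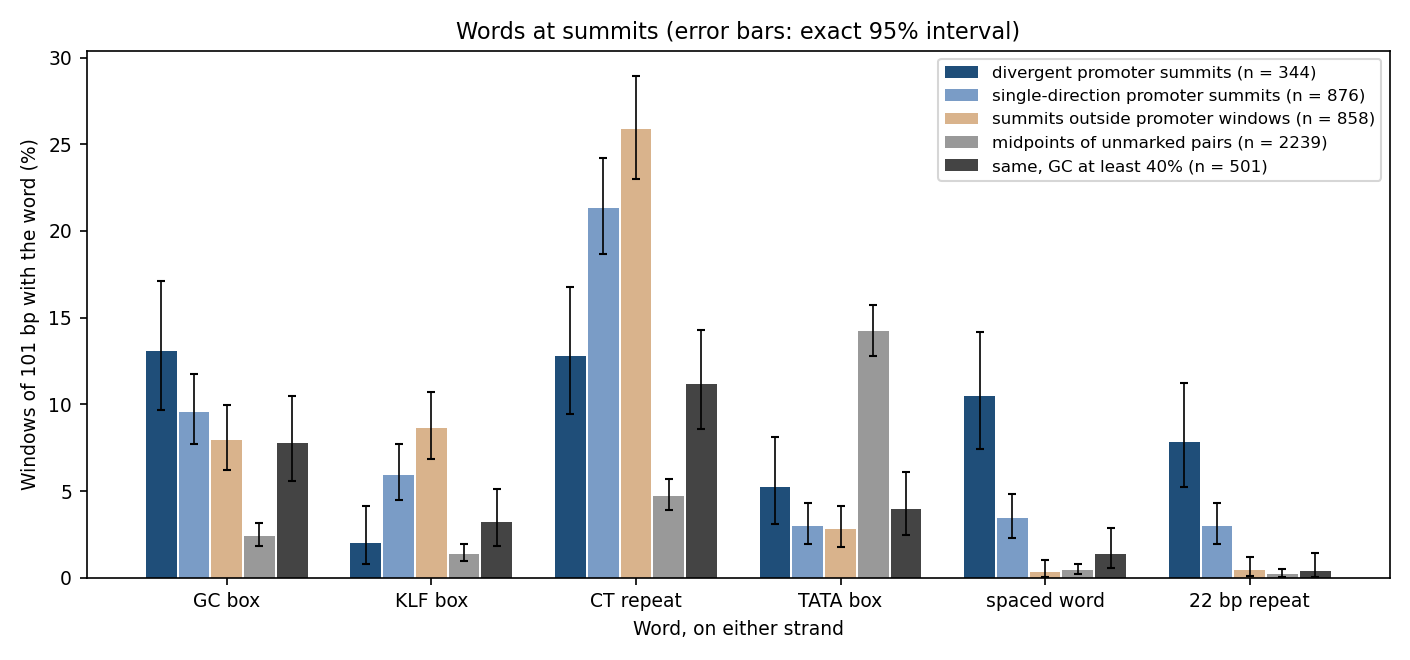
Share of windows, reaching 50 bp to either side, that hold each word on either strand (%), with exact 95% intervals, at divergent promoter summits, single-direction summits, summits outside promoters, and midpoints of unmarked pairs, all and with a GC content of at least 40%. The spaced word is in 10.5% of divergent promoter windows and 0.350% outside promoters, whereas the CT repeat is in 12.8% and 25.9%.

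As a wider look, all 6-letter words were ranked by the ratio of their share at divergent promoter summits to that at midpoints of unmarked pairs. The first were TGCGCA (9.30% against 0.983%), GCACGC (11.6% against 1.25%), CGCCGC (15.7% against 1.79%) and CGCACG (11.6% against 1.38%). The same words were in 6.16%, 9.36%, 10.5% and 9.59% of single-direction windows. All are made mostly of G and C, and the share of such words moves with the GC content of the windows.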

How the data were processed

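SPTF-1 ChIP-seq peaks of 2 replicates of 1 group were used. Per the deposited file listings, peak calling used the alignments and a control file, and the thresholded list holds the peaks that passed an irreproducible discovery rate analysis (its optimal set). The deposited values used are the signal value, a summit position and, for reading the list, a −log10 q value per region, as the authors' caller gave them. Aligner, caller, cutoff and read depth are not given in the sources used here. Only the ce11 lists were used, with the Ensembl release 115 annotation and the RefSeq sequence of the same build, WBcel235.

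Windows, distances, pairs, words and overlaps were computed with Python 3.11.15, NumPy 2.4.6, pandas 2.3.3, SciPy 1.17.1 and matplotlib 3.10.9, and checked on simulated data. Intervals for shares are exact (Clopper-Pearson) at 95% and treat summits or genes as independent. RefSeq product names gave gene functions. The replicates are biological per the labels.

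The members, gene lists and rules were chosen with earlier results of these data known. One gene pair that the rule names is not reported here. Genes were named by rule: the pairs of the 25 strongest summits with a top region in both replicates, up to 3 genes per list, every pair with both genes in a list, pairs with 3 or more summits, and the 5 weakest summits. Those just below the threshold, the pairs with 2 summits, the unusual layouts, rpl-1, rps-3, and the pairs named for a word were chosen after their values were seen. So were the spaced words, the word CATACAC, the word GCGTCAG, the heat shock element, the set of high GC content, the unmarked pairs without any thresholded summit, the genes 200 bp upstream and the printed sequences. The spaced words came from a scan of pairs of 4-letter words with gaps of 4 to 25 bases in windows of 151 bp around the summits. Alternatives covered the window, the small RNA filter, signal, start choice, overlap, window width and each replicate alone.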

Additional observations from a re-analysis of the deposited data

How the results depend on the processing

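Of 93 values recomputed under another setting, 78 stayed within the 95% interval of the value as reported, or for counts within 1.5 times, and none changed direction, since no direction was tested. With 2000 bp upstream the median distance to the nearer start was 168 bp, and 1055 genes in place of 695 had a member summit. With only the peaks above the median signal of all 2419 nuclear peaks (299, against 288 for the 2078), there were 216 summits, 99.5% had a top region in both replicates, 8.10% of pairs held a summit, the median distance to the nearer start was 159.5 bp, 447 genes had a member summit, and the GC box was in 17.6% and the spaced word in 14.8% of windows. With 2 times as many top regions per replicate 98.0% were found in both. With windows of 100 bp to either side the GC box was in 18.9%, the TATA box in 15.7% and the CT repeat in 20.6% of windows, while the spaced word stayed at 10.5%. A wider window holds more words by construction, and a stricter signal keeps fewer peaks. Peaks of high signal are also likely to be top regions in each replicate, since that signal was made from both. The other causes were not tested.

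The top 2430 regions of each replicate alone gave 317 to 365 summits, 11.4 to 13.3% of pairs with a summit, a median distance of 144 to 158 bp, a GC box in 11.5 to 12.9% of windows, 91.2 to 92.1% between the starts, and 33.3% of cytosolic ribosome genes with a summit from either. In the 2165 pairs with no thresholded summit between the starts or in both windows the GC box was in 2.45% and the spaced word in 0.462% of midpoints. That set, the set of high GC content and the summits after the 40 strongest were chosen after seeing the data. No paired analysis was possible because the series has a single group. Read depth is unknown, so a weak signal value has no error of its own.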
